A study of Mus musculus with 4 samples.

Results

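The *Hox* genes encode homeodomain transcription factors and lie in 4 clusters, *Hoxa*, *Hoxb*, *Hoxc* and *Hoxd*. All protein-coding genes whose symbol joins *Hox*, a cluster letter and a number were taken, which gave 39 of the 56748 gene IDs in the count files. Direct RNA was sequenced on a nanopore instrument from C2C12 cells, an established mouse myoblast line given as WT in genotype and kept in growth medium. The scrambled group (n = 2) carried a scrambled shRNA and the knockdown group (n = 2) carried a mixture of 3 shRNAs against *Hnrnpl*, which encodes an RNA-binding splicing regulator. Both groups carried a plasmid with an eGFP reporter and were selected with puromycin. The libraries of a group were passages of 1 selected stable line, so the shRNA and the line cannot be told apart, and p-values measure only the spread between passages. Batch 1 and batch 2, as the labels name them, each held 1 library of either group.

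Genes at corresponding positions of different clusters form paralogue groups, numbered from 1 at the anterior (3′) end to 13 at the posterior (5′) end. In the embryo, genes of low number are active first and toward the head, and genes of high number later and toward the tail and the tips of the limbs. Cells kept in culture often retain a *Hox* pattern that reflects the body position they came from. *Hox* proteins bind DNA with TALE cofactors of the Pbx, Meis and Pknox families. Polycomb complexes hold silent *Hox* genes in a repressed state, trithorax complexes maintain the active ones, and retinoic acid and Cdx factors act on the clusters in the embryo.

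The libraries held 1229424 to 1676911 counted reads, so a count of 0 allows up to 1.79 to 2.44 CPM (counts scaled to the total counted reads of the library), taken at 3 counts and covering counting error only. *Hnrnpl* (ENSMUSG00000015165.17) had 358 and 656 reads in scrambled 1 and 2, against 242 and 258 in knockdown 1 and 2. Its log2 fold change was -0.78, with a standard error (SE) of 0.18 and an adjusted p of 0.0112 (edgeR, quasi-likelihood test, Benjamini-Hochberg adjustment), and the adjusted p of edgeR was 0.194 without scrambled 2 and 0.150 without knockdown 1. Of 12 myoblast markers, *Pax7*, *Pax3* and *Myog* had no reads and *Myod1* had 1, whereas *Myf5* had 113 to 190 per library. Markers of immune, endothelial, epithelial and fat cells summed to at most 3.25 CPM per list. With 2 libraries per group the smallest p of an exact permutation test is 0.333, and model fits across all genes were therefore used.

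Reads were counted on 23 of the 39 *Hox* genes, 1314 reads over the 4 libraries, and 13 genes had a read in every library. The *Hoxc* cluster held most of them, with 740 reads on all 9 of its genes. The *Hoxa* cluster followed with 495 reads on 8 of 11 genes, and the *Hoxb* cluster with 79 reads on 6 of 10. No read was counted on any of the 9 *Hoxd* genes in any library. All *Hox* genes together made up 223 and 221 CPM in scrambled and 258 and 227 CPM in knockdown.

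In *Hoxa* and *Hoxc* the reads lay mainly at the posterior end. With the 4 libraries pooled, paralogue group 10 held 30.7% of all *Hox* reads, group 9 held 27.3% and group 11 held 22.7%. Group 13, the most posterior, held 6.16%, and group 12 had 2 reads. Group 3 had none. The order of groups 9 and 10 depended on the library. Group 9 was ahead in scrambled 1 (102 against 85 reads). Group 10 was ahead in scrambled 2 (101 against 96), knockdown 1 (113 against 89) and knockdown 2 (104 against 72). Per kilobase of exon, group 11 lay above group 9 (24.6 against 18.3 CPM per kilobase, mean of the 4 libraries). In pooled reads, without division by length, group 9 lay above group 11 (359 against 298). Among the anterior and central groups, group 6, led by *Hoxc6*, had the most over the 4 libraries, with 56 reads. In scrambled 1 and 2 it had 12 and 27 reads. In knockdown 1 and 2 it had 11 and 6, where group 5 had 9 and 11. Per kilobase of exon, groups 9 to 13 made up 85.8% and 81.3% of the summed level of the clusters in scrambled 1 and 2, against 88.8% and 87.5% in knockdown 1 and 2. The share was 85.8% ± 3.28 (SD, n = 4) over the 4 libraries. It was 84.5% to 92.6% in the *Hoxa* cluster alone and 87.3% to 90.8% in the *Hoxc* cluster alone, where the groups overlapped in *Hoxc* and the knockdown libraries lay lower in *Hoxa*. In *Hoxb* it was 53.6% and 30.1% in the scrambled libraries, and the single knockdown read of that cluster lay in group 13. The sum over the clusters lay higher in both knockdown libraries, which lack the *Hoxb* reads of groups 5 to 8.

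**Figure D1:**
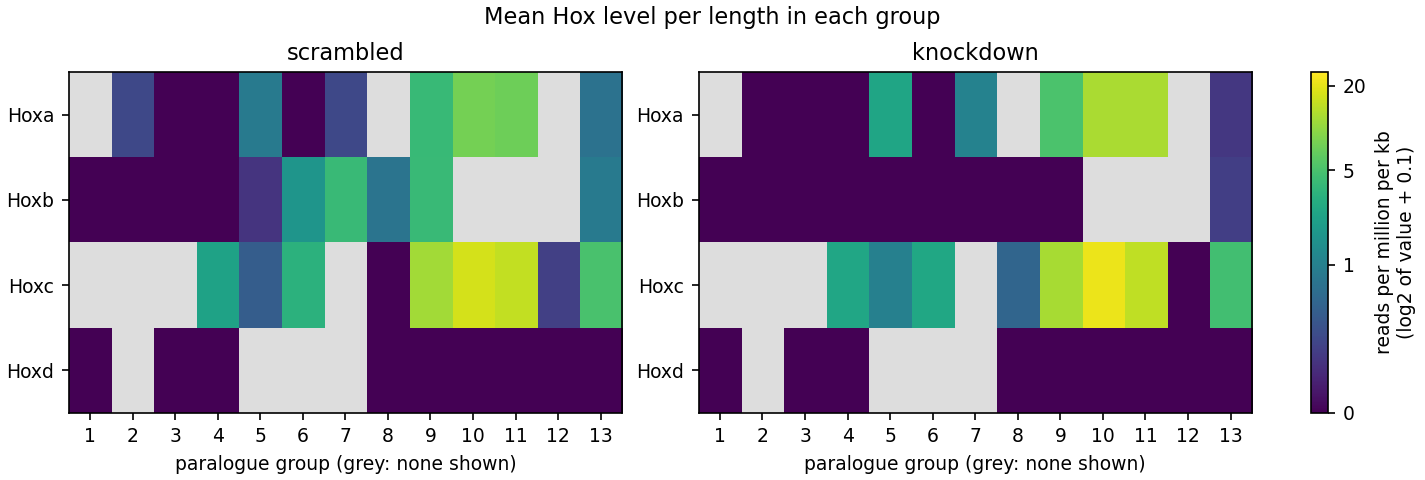
Level of each *Hox* gene in CPM per kilobase of exon by cluster (rows) and paralogue group (columns), as the mean of the 2 libraries of each group on a log2 color scale, from dark purple at 0 to yellow at the highest levels, with grey where a cluster has no such gene or none is shown. The bright cells lie at groups 9 to 11 of *Hoxa* and *Hoxc*, the *Hoxd* row is dark throughout, and the *Hoxb* row shows levels from group 5 to 9 in scrambled that are at 0 in knockdown.

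In the order of levels per kilobase, *Hoxc10* came first with a mean of 19.2 CPM per kilobase (15.8 to 22.3 over the libraries). *Hoxc11* followed at 14.8 (11.7 to 17.6), *Hoxc9* at 11.7 (10.7 to 13.2), *Hoxa10* at 9.95 (6.68 to 12.6) and *Hoxa11* at 9.79 (6.23 to 13.2). *Hoxc13* (4.82), *Hoxa9* (4.56), *Hoxc6* (2.96) and *Hoxc4* (2.42) came next on the same scale. The ranges of neighbours in this order overlapped at every step from *Hoxc10* to *Hoxc4*. The paper reports that its nanopore reads favor the 3′ end, so reads need not rise with exon length. Without division by length the order differed. *Hoxc10* had a mean of 39.2 CPM, *Hoxa10* 32.85, *Hoxc9* 32.5, *Hoxc11* 29.9, *Hoxa9* 25.4 and *Hoxa11* 22.7. Within libraries, *Hoxc10* was above *Hoxc11*, and *Hoxa11* above *Hoxc13*, in all 4. *Hoxc10*, *Hoxa10* and *Hoxc11* are posterior genes with known roles in hindlimb or lumbar patterning.

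As a ratio, the *Hoxb* cluster differed most between the groups, while in summed CPM the *Hoxa* cluster did. It lies on the forward strand of chromosome 11 (GRCm39, chr11:96085106-96259082) and had 41 and 37 reads in scrambled 1 and 2, against 0 and 1 in knockdown 1 and 2. In CPM these were 29.5 and 22.1 for scrambled, 0 and 0.813 for knockdown, so the difference stood within batch 1 and within batch 2. The knockdown reads were 0.0148 of the scrambled reads after scaling (95% interval 0.00037 to 0.0848, counting error only). In these bulk libraries, fewer cells with *Hoxb* RNA and less *Hoxb* RNA per cell cannot be told apart.

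The reads came from 5 adjoining genes, *Hoxb5* to *Hoxb9*, and from *Hoxb13* at the far posterior end. *Hoxb9* (ENSMUSG00000020875.10, chr11:96162150-96167421), a thoracic patterning gene, had 22 and 11 reads in scrambled 1 and 2, against none in either knockdown library. *Hoxb7* (ENSMUSG00000038721.9, chr11:96177449-96180988) had 7 and 13 reads in scrambled and none in knockdown. *Hoxb6* (ENSMUSG00000000690.6, chr11:96183280-96192395) had 5 and 7 in scrambled and none in knockdown. For these genes every scrambled library lay above both knockdown libraries, as it did for 26% of the genes tested in edgeR, which do not include these 3. *Hoxb8* had 3 reads in each scrambled library and *Hoxb5* had 1 read in scrambled 1, and neither had a read in knockdown. *Hoxb13* had 3 reads in each scrambled library and 0 and 1 in knockdown. The anterior genes *Hoxb1*, *Hoxb2*, *Hoxb3* and *Hoxb4* had no reads in any library, so no change could be seen there.

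From *Hoxb5* to *Hoxb9*, a stretch of 34.8 kb at chr11:96162150-96196947, the reads summed to 38 and 34 in scrambled and 0 and 0 in knockdown. Against a floor of 3 counts over both knockdown libraries, this sum was at least 20.8-fold lower in knockdown, with the scrambled reads taken as exact. The 95% interval of the ratio, which counts the error of both groups, reached up to 0.0606. The stretch was delimited by where the reads lay. On the same floor *Hoxb9* was at least 9.54-fold lower, *Hoxb7* at least 5.78-fold, *Hoxb6* at least 3.47-fold and *Hoxb8* at least 1.73-fold. The bound of *Hoxb9* rests on 23.1 and 9.26 normalized counts in scrambled 1 and 2, so it would be lower on scrambled 2 alone. None of the *Hoxb* genes passed the filter of edgeR on low counts, so none was among the 8670 genes of the main test.

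Fitted without that filter over 16728 genes, 3 of the 23 *Hox* genes with reads fell at an adjusted p under 0.05, where 2.62% of all genes in this fit fell and 1.8% rose. The adjusted p of edgeR was 9.88e-08 for *Hoxb9*, 0.000277 for *Hoxb7* and 0.0263 for *Hoxb6*. In the fit with a replicate block *Hoxb6* had an adjusted p of 0.139 in edgeR, and it was 0.145 to 0.300 when any single library was left out. For *Hoxb7* the adjusted p of edgeR was 0.102 without scrambled 2. With the newer quasi-likelihood method of edgeR (legacy = FALSE) the adjusted p-values were 0.0814, 0.0796 and 0.169. *Hoxb8* had an unadjusted p of 0.0438 and an adjusted p of 0.322 in edgeR. In DESeq2 with the 4 combinations of test and fit that the authors used, the unadjusted p-values of *Hoxb9*, *Hoxb7* and *Hoxb6* lay between 1.51e-05 and 0.0225. Of these 3, DESeq2 gave an adjusted p for *Hoxb9* alone, 0.0262 (Wald) and 0.0106 (likelihood ratio) with the parametric fit. The authors set the significance level behind DESeq2's own filter on low counts to 0.05. Its default was kept here, so the adjusted p-values can differ from theirs.

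Sums of some marker lists also lay lower in knockdown. The 12 myoblast markers, 9 of them with reads, summed to 659 and 804 CPM in scrambled and 462 and 377 CPM in knockdown. *Des*, *Cdh15* and *Chrna1* were called lower among the 5 that were tested (3.22% of all tested genes). The 7 fibroblast markers summed to 303 and 215 CPM in scrambled and 121 and 93.5 CPM in knockdown, with 4 having reads, *Col1a2* providing most, and *Col1a1*, *Thy1* and *Lum* at 0. The 4 neuron markers summed to 108 and 88.9 CPM in scrambled and 15.3 and 14.6 CPM in knockdown, nearly all of it *Tubb3*, with *Rbfox3* and *Snap25* at 0. The part of these markers in the *Hoxb* result was not tested.

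**Figure D2:**
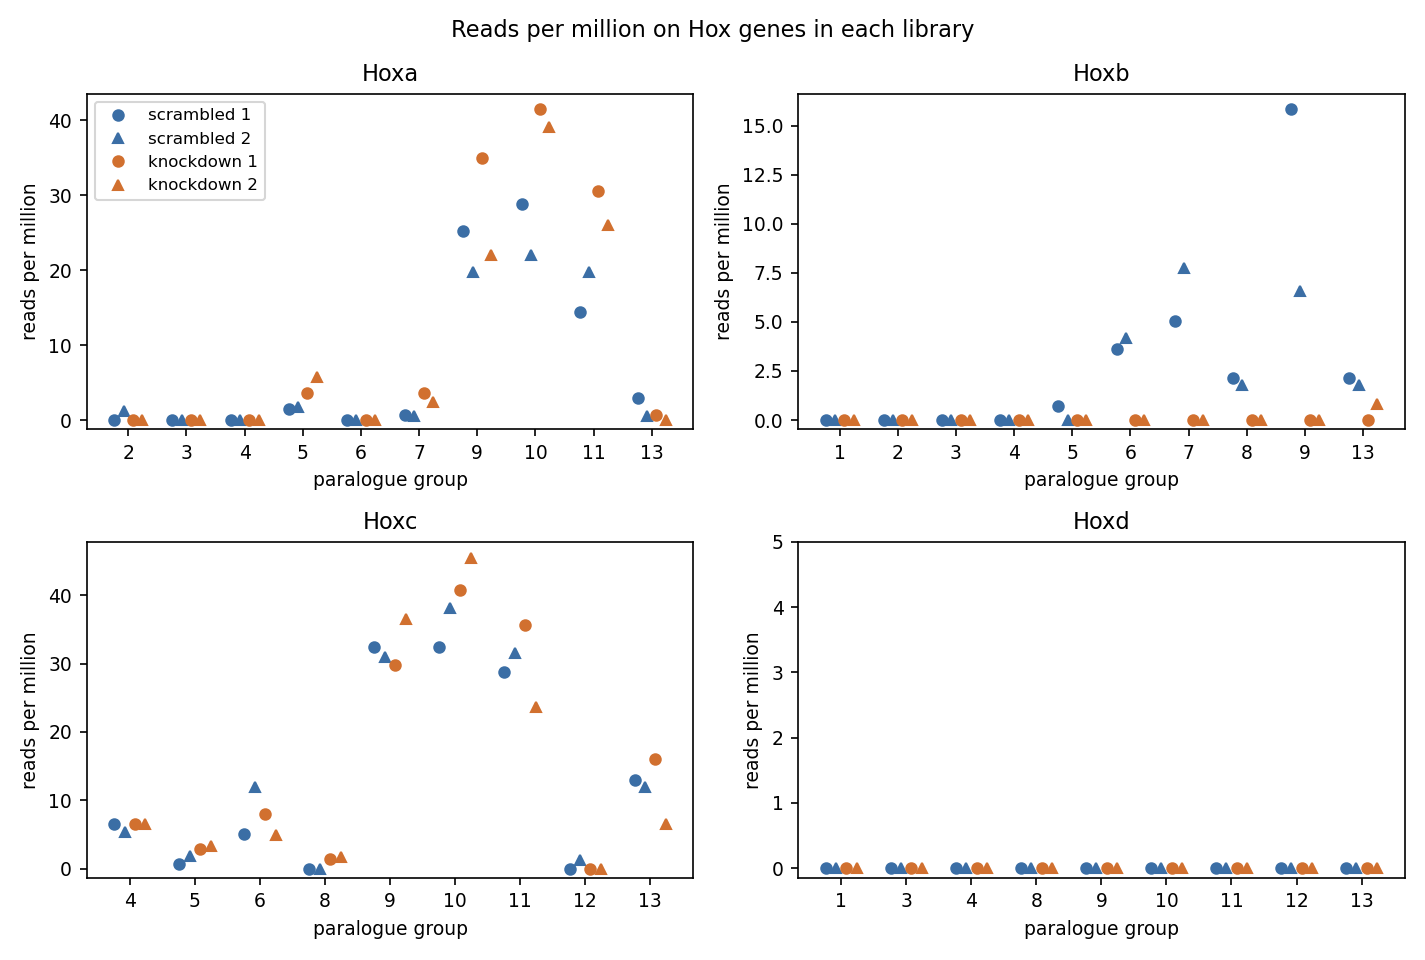
Level of *Hox* genes in CPM (vertical axes, scaled separately per cluster) by paralogue group, 1 point per library, with scrambled in blue, knockdown in orange, circles for libraries numbered 1 and triangles for those numbered 2. In *Hoxb* the scrambled points reach 15.9 CPM at *Hoxb9* while the knockdown points lie at 0, apart from 0.813 CPM at *Hoxb13*. In *Hoxa* and *Hoxc* both groups have most of their reads on the genes of groups 9 to 11.

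The promoter of *Hoxb6* is shown as an example of the genes that had reads in scrambled and none in knockdown. It runs from 250 bases before to 50 bases after the start of the canonical transcript (GRCm39, forward strand, chr11:96189331-96189630), 5′ to 3′, in lower case with no part singled out.
Hoxb6: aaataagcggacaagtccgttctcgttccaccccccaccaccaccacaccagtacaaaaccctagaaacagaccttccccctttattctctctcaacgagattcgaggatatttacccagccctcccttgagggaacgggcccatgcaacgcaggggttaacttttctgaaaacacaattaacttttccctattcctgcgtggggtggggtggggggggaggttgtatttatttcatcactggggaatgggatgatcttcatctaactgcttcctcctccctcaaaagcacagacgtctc

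Promoter windows of the same length were searched on both strands for TGATNNAT, letters that pairs of Hox and Pbx proteins are known to bind. They are not in the *Hoxb6* window. Over all clusters, 11 of 39 *Hox* promoters (28.2%) held a match, against 7.65% of the windows of 21617 protein-coding genes. By cluster it was 7 of 10 in *Hoxb*, 3 of 11 in *Hoxa*, 1 of 9 in *Hoxc* and 0 of 9 in *Hoxd*. The homeodomain core TAAT, read on both strands, was in 29 of 39 *Hox* windows (74.4%) and in 57.7% of all windows. A match to the longer motif can also hold this core. The TATA box letters TATAAA, on either strand, were in 7 *Hox* windows (17.9%) and in 13.2% of all windows. *Hox* windows had a median ratio of observed to expected CG pairs of 0.742, against 0.517 over all windows, and the medians were 0.742 for *Hox* genes with reads and 0.669 for those without. A match describes letters, and binding was not measured.

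The *Hoxa* cluster (reverse strand, chr6:52132570-52237822) had more reads in knockdown. Its genes summed to 104 and 111 reads in scrambled 1 and 2, against 160 and 120 in knockdown 1 and 2. After scaling this was 101 ± 11 normalized reads (SD, n = 2) for the scrambled libraries against 150 ± 13.6 (SD, n = 2) in knockdown, a ratio of 1.5 (95% interval 1.25 to 1.80, counting error only). The scaled sums of the groups did not overlap, and 26.4% of all tested genes likewise lay higher in both knockdown libraries. The 404 tested genes of chromosome 6, which holds the cluster, had a median log2 fold change of 0.28. In CPM the sum was 75.0 in scrambled and 116 in knockdown of batch 1, and 66.2 and 97.6 in batch 2.

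Of the 8 *Hox* genes that passed the filter of edgeR, 0 were called at the thresholds of the authors (adjusted p under 0.05, absolute log2 fold change over 0.5 and mean normalized count over 10), where 5.55% of all tested genes were called and 5.95% had an adjusted p under 0.05 alone. At an unadjusted p under 0.05 there were 2, *Hoxa10* and *Hoxa11*, both higher, where 21.8% of all genes passed and 10.3% were higher. In DESeq2 none of these 8 genes had an adjusted p under 0.05, and the unadjusted p-values of *Hoxa10* and *Hoxa11* were 0.0860 to 0.175. The median log2 fold change was 0.14 over the 8 genes, 0.64 over the 3 *Hoxa* genes and -0.05 over the 5 *Hoxc* genes, against -0.00 over all tested genes.

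*Hoxa10* (ENSMUSG00000000938.12, chr6:52208164-52217834) had 40 and 37 reads in scrambled 1 and 2, against 57 and 48 in knockdown 1 and 2. Its log2 fold change was 0.64 (SE 0.25, unadjusted p = 0.0182, with adjusted p = 0.134 by edgeR). *Hoxa11* (ENSMUSG00000038210.11, chr6:52219074-52222806), needed for the forearm and the uterus, had 20 and 33 reads in scrambled and 42 and 32 in knockdown. Its log2 fold change was 0.69 (SE 0.29, unadjusted p = 0.0290, with adjusted p = 0.172 by edgeR). The normalized counts of the knockdown libraries lay above those of both scrambled libraries for *Hoxa10*, *Hoxa11* and *Hoxc10*, 3 of the 8 tested genes, as for 26.4% of all tested genes. They lay below for 0 of the 8, where this held for 26% of all tested genes. The 404 tested genes on chromosome 6 had a median log2 fold change of 0.28, and with chromosome medians removed *Hoxa10* stood at 0.37 (unadjusted p = 0.158 by edgeR) and *Hoxa11* at 0.41 (unadjusted p = 0.174 by edgeR). *Hoxa11* also shares 43.6% of its exon length with the antisense gene *Hoxa11os* (4 and 8 reads in scrambled, 3 and 5 in knockdown). The strand setting of the counting is not given in the sources used here, so reads of the pair may have been mixed or set aside.

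*Hoxa9* had 35 and 33 reads in scrambled and 48 and 27 in knockdown, so its groups overlapped. Its log2 fold change was 0.33 (SE 0.29, with adjusted p = 0.55 by edgeR), and 0.055 with chromosome medians removed. *Hoxa13*, which patterns the digits, had 4 and 1 reads in scrambled and 1 and 0 in knockdown. The anterior and central genes of the cluster were thinly covered. *Hoxa7* had 1 read in each scrambled library and 5 and 3 in knockdown. *Hoxa5* had 2 and 3 in scrambled and 5 and 7 in knockdown. *Hoxa2* had 2 reads in scrambled 2 alone, and *Hoxa3*, *Hoxa4* and *Hoxa6* had none.

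The *Hoxc* cluster (forward strand, chr15:102829538-102945278) held similar numbers of reads in both groups. It had 165 and 223 reads in scrambled 1 and 2, against 194 and 158 in knockdown 1 and 2, or 180 ± 10.5 normalized reads (SD, n = 2) for the scrambled libraries against 189 ± 6.10 (SD, n = 2) in knockdown. The ratio was 1.05 (95% interval 0.903 to 1.21, counting error only), and the scaled sums overlapped between the groups.

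*Hoxc10* (ENSMUSG00000022484.8, chr15:102875134-102880330) had 45 and 64 reads in scrambled and 56 and 56 in knockdown. It had a log2 fold change of 0.25 (SE 0.22, adjusted p of 0.556 by edgeR). *Hoxc9*, which sets thoracic motor neuron identity, had 45 and 52 reads in scrambled and 41 and 45 in knockdown. *Hoxc11* had 40 and 53 in scrambled and 49 and 29 in knockdown. Their log2 fold changes were 0.03 (SE 0.25) and -0.05 (SE 0.26), and the adjusted p-values of edgeR were 0.957 and 0.935. *Hoxc13*, a regulator of hair and nail keratins, had 18 and 20 reads in scrambled and 22 and 8 in knockdown (log2 fold change -0.15, SE 0.41). *Hoxc6* had 7 and 20 reads in scrambled and 11 and 6 in knockdown (log2 fold change -0.45, SE 0.49). In normalized counts of *Hoxc6*, the libraries of each group differed by more than the group means. For *Hoxc13* this held in the knockdown group alone.

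Of the *Hoxc* genes that did not pass the filter, *Hoxc4* had 9 reads in each scrambled library and 9 and 8 in knockdown. *Hoxc5* had 1 and 3 reads in scrambled and 4 and 4 in knockdown, *Hoxc8* 0 in scrambled and 2 in each knockdown library, and *Hoxc12* 2 reads in scrambled 2 alone. Apart from *Hoxc4*, these counts are at or near the 3 reads that a count of 0 allows.

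**Figure D3:**
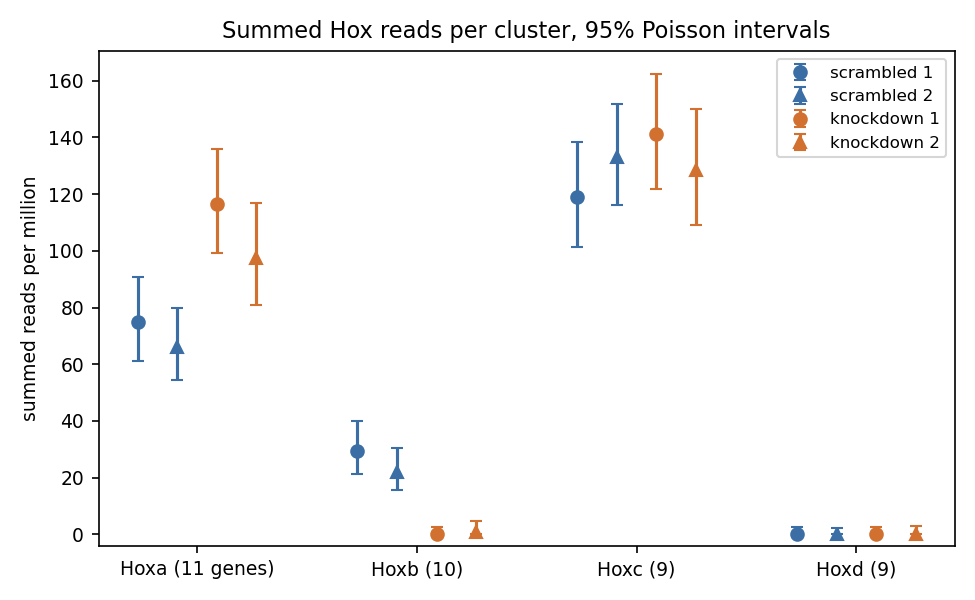
Summed reads of each *Hox* cluster per library in CPM, with 95% Poisson intervals as error bars. The *Hoxb* points fall from 29.5 and 22.1 CPM in scrambled to 0 and 0.813 CPM in knockdown, the *Hoxa* points lie higher in knockdown, the *Hoxc* points lie between 119 and 141 CPM in all libraries, and *Hoxd* is at 0.

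**Figure D4:**
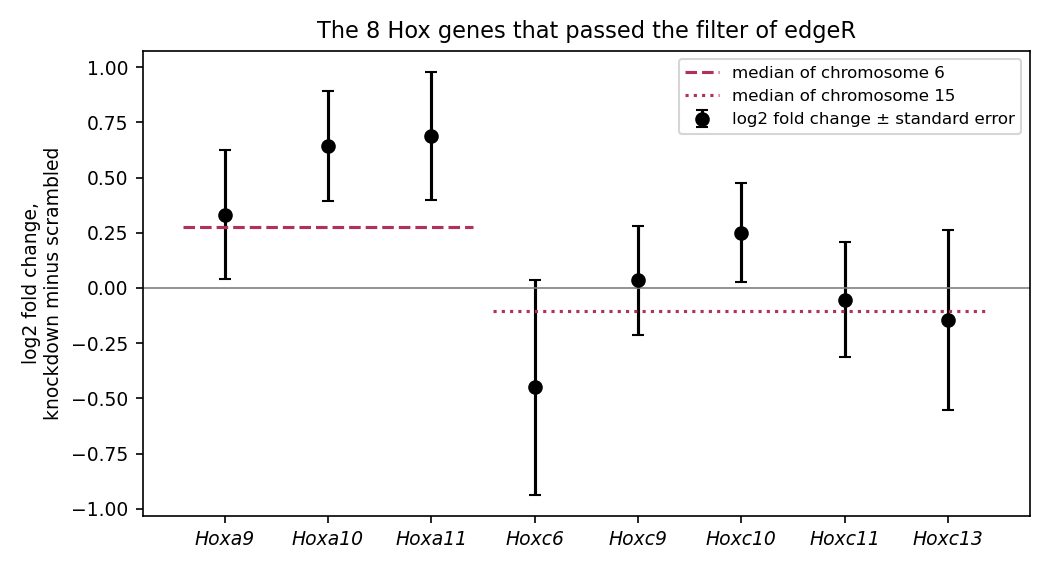
Log2 fold change of knockdown over scrambled for the 8 *Hox* genes that passed the filter of edgeR, with standard errors as bars and the median of all tested genes on chromosome 6 (dashed, 0.28) and on chromosome 15 (dotted, -0.10). *Hoxa10* and *Hoxa11* lie at 0.64 and 0.69, and the 5 *Hoxc* genes lie between -0.45 and 0.25.

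The *Hoxd* cluster (forward strand, chr2:74498654-74595486) had a count of 0 on all 9 genes in all 4 libraries, which leaves up to 1.79 to 2.44 CPM possible per library for the cluster sum. The counting set aside reads that touched more than 1 gene, 15.97% to 16.54% of all reads, and this bears on some members. *Hoxd3* and *Hoxd4* share 38.21% and 51.97% of their exon length with other genes on the same strand in the GENCODE vM39 annotation. Of the 16 *Hox* genes without reads, 4 have an exon shared with another gene on the same strand in every transcript, 8 when both strands are considered, and 7 share none. In *Hoxb*, every transcript of *Hoxb6* overlaps the antisense gene *Hoxb5os* (0 and 2 reads in scrambled, 1 and 0 in knockdown), over 30.8% of its exon length. Every transcript of *Hoxb5* and *Hoxb9* also overlaps *Hoxb5os*, over 9.48% and 1.55% of exon length. *Hoxb7* and *Hoxb8* share no exon with another gene. In *Hoxc*, every transcript of *Hoxc10* shares exon with *Hoxc5* on the same strand, over 8.11% of its exon length.

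Within 500 kb of the *Hoxb* cluster, 7 of 17 protein-coding neighbours were tested and 0 were called (1 at an unadjusted p under 0.05, and 3.22% of all tested genes were called lower), with a median log2 fold change of -0.18. The median of chromosome 11 was -0.11. The nearest tested neighbour, *Atp5mc1*, lies 118 kb away. *Skap1*, an adaptor protein gene 95.9 kb away, was not tested and had 11 and 9 reads in scrambled against 4 and 6 in knockdown. *Cbx1*, a heterochromatin protein gene, had 198 and 240 reads in scrambled and 154 and 124 in knockdown (log2 fold change -0.45, with adjusted p = 0.0905 by edgeR). *Atp5mc1*, which encodes a subunit of the mitochondrial ATP synthase, had 440 and 630 reads in scrambled and 390 and 398 in knockdown (log2 fold change -0.22). Of the 3 tested neighbours of *Hoxa*, 0 were called and 1 had an unadjusted p under 0.05 (5.55% and 21.8% of all tested genes). That gene was *Hibadh*, at 0.53 with an adjusted p of 0.129 from edgeR. The median of these neighbours was 0.32, and that of chromosome 6 was 0.28. Of the 13 tested neighbours of *Hoxc*, 3 had an unadjusted p under 0.05 (21.8% of all tested genes) and 1 was called lower (3.22%). This was *Itga5*, the fibronectin receptor subunit, which fell by 0.78 on the log2 scale (adjusted p = 0.00471 by edgeR) with 224 and 298 reads in scrambled and 148 and 115 in knockdown. The others under an unadjusted p of 0.05 were *Pcbp2* at -0.75 and *Prr13* at 0.44, with adjusted p-values of 0.0926 and 0.0984 from edgeR. Both tested neighbours of *Hoxd*, *Lnpk* and *Mtx2*, were uncalled. Non-coding genes in or within 10 kb of the clusters were barely covered, and none was tested. *Hotair*, in the *Hoxc* cluster, had 2 and 7 reads in scrambled and 5 and 3 in knockdown.

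**Figure D5:**
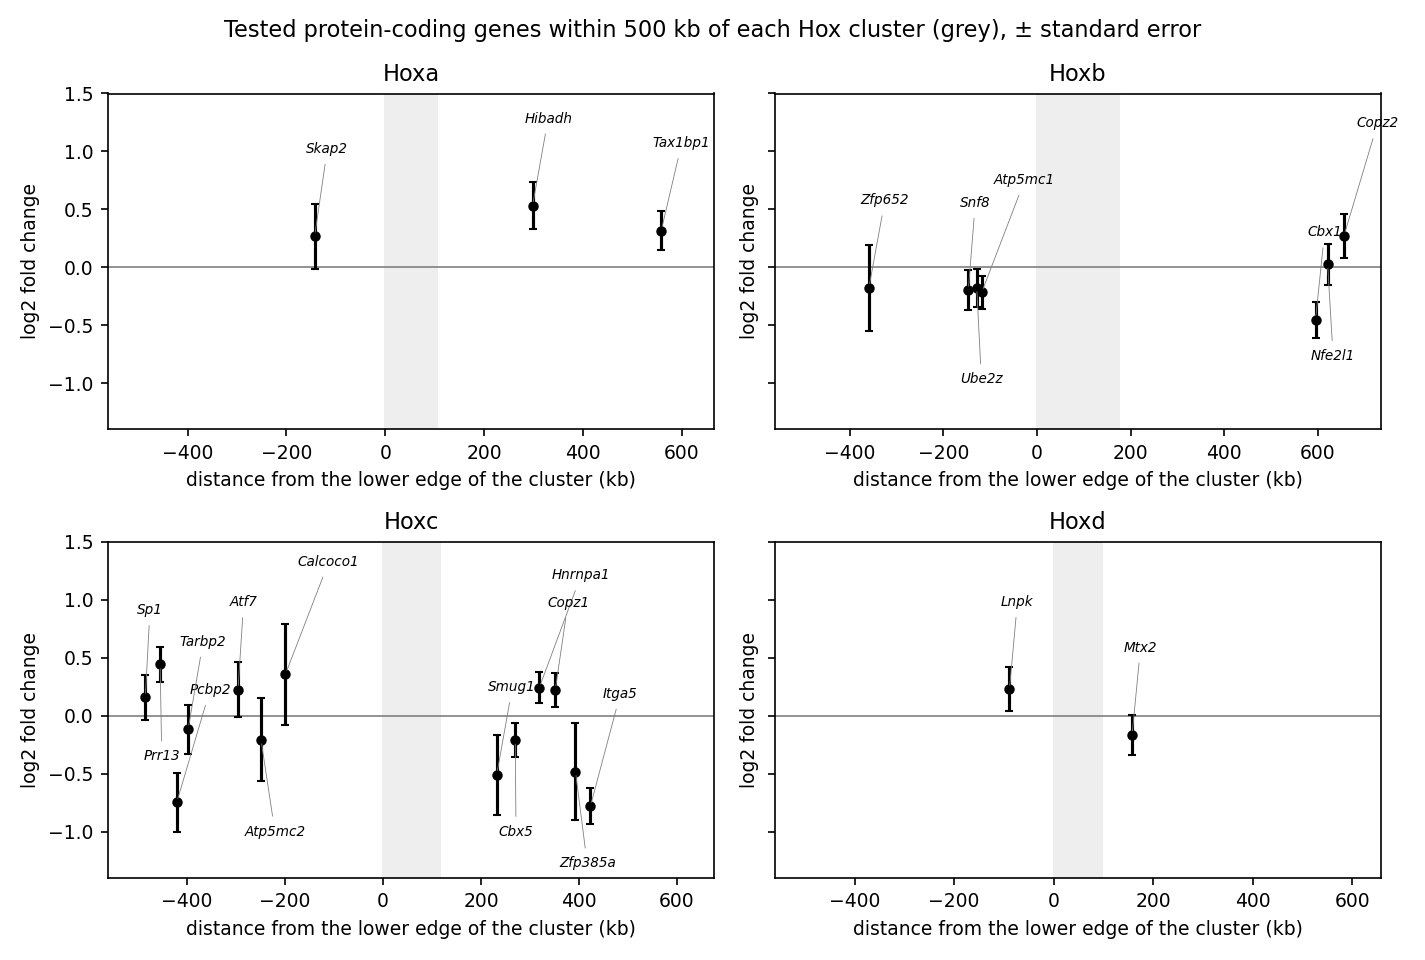
Log2 fold change of knockdown over scrambled, with standard errors, for tested protein-coding genes within 500 kb of each *Hox* cluster, against the distance from the lower edge of the cluster in kb (the cluster in grey). The 7 genes beside *Hoxb* lie between -0.45 and 0.27.

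Among 9 TALE cofactor genes, all with reads and 7 tested, 1 was called lower and 0 higher (3.22% and 2.33% of all tested genes), with a median of 0.23. *Pknox2* fell from 25 and 35 reads in scrambled to 1 and 4 in knockdown (log2 fold change -3.31, SE 0.53, with adjusted p = 0.000835 by edgeR), and the groups did not overlap. *Pbx2* had 21 and 41 reads in scrambled, 40 and 23 in knockdown, and *Pknox1* 23 and 36, then 29 and 27, so the counts of both overlapped between the groups.

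None of the 10 tested genes of Polycomb complex PRC2 was called (5.55% of all tested genes), and 2 had an unadjusted p under 0.05 (21.8% of all tested genes), with a median of 0.01. *Ezh2*, its histone H3 methyltransferase, stood at 0.41 and *Suz12*, a core subunit, at -0.40, with adjusted p-values of 0.184 and 0.186 from edgeR. Of 17 tested PRC1 genes, 0 were called and 0 had an unadjusted p under 0.05, with *Pcgf5* (207 and 263 reads in scrambled, 241 and 208 in knockdown) and *Bmi1* (188 and 222, then 196 and 151) the most abundant in reads. Of 12 tested trithorax genes, 0 were called and 2 had an unadjusted p under 0.05, beside the same 5.55% and 21.8% of all genes. *Men1*, which encodes menin, stood at -0.53 (124 and 172 reads in scrambled, 99 and 78 in knockdown, with adjusted p = 0.0675 by edgeR), and *Dpy30*, a methyltransferase subunit, at 0.32 (adjusted p = 0.207).

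Of 19 retinoic acid and Cdx genes, 12 had reads and 6 were tested, of which 0 were called and 3 had an unadjusted p under 0.05 (5.55% and 21.8% of all tested genes). *Crabp2*, a retinoic acid binding protein, had 38 and 35 reads in scrambled and 81 and 40 in knockdown (log2 fold change 0.91, with adjusted p = 0.0577 by edgeR), and *Rxrb* and *Rarg*, both nuclear receptors, stood at -0.74 and 0.40. *Cdx1*, *Cdx2* and *Cdx4* had no reads in any library.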

How the data were processed

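Direct RNA reads of 4 libraries were used. The authors basecalled the reads, aligned them with minimap2 2.17 to the GRCm39 genome and obtained gene counts with HTSeq 0.9.1, and the deposited files hold raw counts per gene ID, with unassigned reads (left out of library sizes) in separate lines. The annotation release and strand setting are not given in the sources used here. Symbols and positions came from GENCODE vM39, in which 56017 of 56748 IDs were found. Counted reads numbered 1387523 (scrambled 1), 1676911 (scrambled 2), 1374637 (knockdown 1) and 1229424 (knockdown 2).

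The groups were compared with edgeR 4.0.16 under R 4.3.3, using TMM, filterByExpr and the quasi-likelihood test, with Benjamini-Hochberg adjustment over all genes tested. Alternatives were 4 DESeq2 1.42.0 configurations, other scaling, filters and fits, chromosome medians removed, a replicate block and single libraries left out. The DESeq2 configurations kept the default significance level behind its filter on low counts, where the authors set 0.05. The versions of these fits without a filter were chosen after the data were seen. On simulated data of 8481 genes for this comparison, edgeR recovered 98.7% of genes changed 4-fold, 71.4% at 2-fold and 25.9% at 1.5-fold. The simulation used only genes that passed the filter, so it does not cover the *Hoxb* genes. It pooled genes of all levels, so these shares need not hold for genes with few reads. The labels' batch pairs libraries of the same number, and deviations of the libraries numbered 1 had a correlation of 0.00258 between the groups over 4501 genes. Promoters were read from GRCm39. The *Hox* genes are given one by one, except that 1 gene, and some promoters and list members, are not reported here. Of each list, called genes were named, then those with an unadjusted p under 0.05, then those with the most reads. The members and lists were chosen with earlier results of these data known. Any other gene was picked with its values in view.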

Additional observations from a re-analysis of the deposited data

How the results depend on the processing

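The count of *Hox* genes called stayed at 0 in the scaling, filter, fit and DESeq2 alternatives. It was 2 at an unadjusted p under 0.05 and 0 to 1 when single libraries were left out. The 1 was *Hoxb9*, which passed the filter without knockdown 2 through its scrambled reads alone, with knockdown 1 assumed to vary like the other group. Without a filter, 3 *Hox* genes were under an adjusted p of 0.05 and also passed the fold change threshold. Only the cut on a mean normalized count over 10 kept them uncalled, as it did *Hoxb9* in the DESeq2 parametric fits. The replicate block left 2 under an adjusted p of 0.05. The newer quasi-likelihood method of edgeR left 0, the DESeq2 Wald test 0 (local fit) and 1 (parametric fit), the likelihood-ratio test 0 and 1, and leaving out single libraries 1 to 2. The DESeq2 counts cover only genes given an adjusted p, which was *Hoxb9* in the parametric fits and none of the 3 in the local fits. With the replicate block the count of called *Hox* genes was 0, and *Hnrnpl* stayed under an adjusted p of 0.05.

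For *Hnrnpl* the log2 fold change was -0.78 in both DESeq2 parametric fits, with adjusted p-values of 0.0585 (Wald) and 0.0616 (likelihood ratio). It lay between -1.03 and -0.48 when single libraries were left out. The sign of the log2 fold change depended on single libraries for *Hoxa9* (-0.015 to 0.58), *Hoxc6* (-0.88 to 0.30), *Hoxc9* (-0.15 to 0.21), *Hoxc11* (-0.35 to 0.17) and *Hoxc13* (-0.92 to 0.30), and *Hoxc11* was at 0.051 with chromosome medians removed. The cause was not tested. *Hoxa10* (0.42 to 0.86), *Hoxa11* (0.51 to 0.91) and *Hoxc10* (0.14 to 0.37) kept their sign when single libraries were left out and in the other alternatives, and *Hoxa10* was at 0.42 without scrambled 2. The unadjusted p of *Hoxa10* and *Hoxa11* was over 0.05 in the 4 DESeq2 configurations, with chromosome medians removed and without knockdown 1 (0.0513 and 0.120), for *Hoxa10* also without scrambled 2 (0.178) and for *Hoxa11* without scrambled 1 (0.147). Asking for a read in every library left 13 *Hox* genes in place of 23. Without the gene with the most reads of its cluster, the difference of knockdown minus scrambled was 21.6 CPM for *Hoxa* (36.4 with all genes), -14.2 CPM for *Hoxb* (-25.4) and 1.03 CPM for *Hoxc* (8.87). With single libraries left out the *Hoxc* difference lay between 1.84 and 15.9 CPM. Depth limits the bounds for the *Hoxb* genes, which rest on a floor of 3 counts, and genes with few or no reads in either group cannot show a change.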
